A study of Homo sapiens with 12 samples.

Results

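The 50 genes described here act in the G2 phase and in mitosis. They were taken by name as a list of mitotic kinases and cyclins, checkpoint proteins, anaphase regulators, kinesins, spindle and kinetochore proteins and condensin subunits, and the rule used names and no measured value, although the list was drawn up with earlier results of these data known. All 50 were found among the 58780 gene IDs of the count tables and all 50 passed the filter on low counts, which left 26688 genes for testing. Their average level ran between 1.94 and 792 CPM (the count of a gene per 1e+06 counts of its library, with library sizes scaled by TMM), and the smallest count of any member in any library was 93.

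The libraries were made from poly(A) RNA of Flp-In T-REx HEK293 cells, a human embryonic kidney line with a recombination site for inducible transgenes. Cells were transfected with siRNAs against SAFB1, SAFB2 and SLTM together (triple KD), against SAFB1 alone (SAFB1 KD), against SLTM alone (SLTM KD) or with a negative control siRNA (control), with 3 libraries in each group, and were harvested on the second day. Negative control siRNA was added to SAFB1 KD and SLTM KD to bring their siRNA total to that of triple KD. A knockdown of SAFB2 alone is not analysed here. One siRNA was used for each target, so an effect of the protein's loss and an effect of that siRNA cannot be told apart. The labels do not say whether the libraries of a group came from separate cultures, and p-values measure the spread between these libraries.

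SAFB1, SAFB2 and SLTM are related nuclear proteins that bind RNA and DNA. The genes of late G2 and mitosis are switched on together in each cycle: the DREAM complex holds them silent in resting cells and in G1, and the MuvB core with MYBL2 (B-MYB) and FOXM1 activates them later, in part through a promoter element named the cell cycle genes homology region (CHR) and through CCAAT boxes bound by NF-Y. CDK1 bound to cyclin B drives entry into mitosis, the spindle assembly checkpoint delays anaphase until chromosomes are attached, and the anaphase-promoting complex with CDC20 then tags securin and cyclin B for destruction. HEK293 cells divide continuously, so these genes are active in the cultures throughout.

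The libraries held between 56856228 and 75533510 assigned counts. SAFB, the gene of SAFB1, had 36.9, 37.9 and 40.0 CPM in triple KD and 45.6, 44.3 and 46.1 CPM in SAFB1 KD, against 231, 235 and 230.5 CPM in control. SLTM had 22.6, 25.8 and 26.6 CPM in triple KD and 19.6, 19.3 and 22.7 CPM in SLTM KD, against 114, 117 and 116 CPM in control, and SAFB2 had 28.2, 28.7 and 30.4 CPM in triple KD against 125, 125 and 129 CPM in control. Each targeted gene was thus low in every library labelled with its siRNA, while SAFB2 was higher than control in SAFB1 KD (log2 fold change 0.73 ± 0.024) and in SLTM KD (0.14 ± 0.024), and SLTM was higher than control in SAFB1 KD (0.26 ± 0.031). Of the markers looked up for HEK293, INA lay between 52.3 and 64.9 CPM over the libraries, with PAX2, LHX1 and NEFM detected at low level. All 4 were called in triple KD against control, INA higher (0.26) and PAX2 (-0.35), LHX1 (-0.25) and NEFM (-0.48) lower, and their summed level was 72.8 to 74.5 CPM in triple KD against 64.1 to 67.3 CPM in control. Whether this has a part in the members' values was not tested. PTPRC, CD3E, LYZ and KRT5, markers of leukocytes and squamous epithelium, were at or below 0.117 CPM in every library. Summed over the genes tested, the leukocyte list (4 of 5 tested) lay between 0.385 and 0.842 CPM over the libraries. The squamous or cervical epithelium list (3 of 5 tested) summed to between 3.78 and 4.64 CPM. A fibroblast list (3 of 5 tested) summed to between 13.6 and 15.4 CPM, with 1 gene called higher in triple KD than in control. Of a colon epithelium list, EPCAM (120.1 to 134 CPM) and CDX2 (27.3 to 33.3 CPM) were expressed, and VIL1, CDH17 and LGALS4 were at or below 0.273 CPM. In triple KD against control 1 gene of the colon list was called higher and 1 lower. That list summed to 150.2 to 152.0 CPM in triple KD against 154.6 to 159.2 CPM in control.

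Most of the members were expressed at a higher level in triple KD than in control, by a small amount. By edgeR's quasi-likelihood test with Benjamini-Hochberg adjustment over all 26688 genes, 32 of the 50 members were higher and 8 were lower in triple KD, and 10 did not pass at an adjusted p of 0.05. Over all genes tested, 19.4% were higher and 20.9% were lower, and among the 9970 genes with at least 10 CPM on average, a level that every member but PRC1 reached, 33.9% were higher and 37.3% lower. The median log2 fold change of the members was 0.10, against -0.004 for all genes tested. Their values ran from -0.67 for MAD2L1 to 0.40 for BUB3. No member passed a test for a change beyond 2-fold (edgeR's glmTreat, 0 at an adjusted p of 0.05 and 0 at an unadjusted p of 0.05; DESeq2 gave 0 and 0), which 255 genes, or 0.955% of those tested, passed. The 3 triple KD libraries lay above the 3 control libraries in 34 members and below them in 8 members, against 23.6% and 24.5% of all genes tested. RNA of a bulk culture was measured, so a different share of cells in G2 or mitosis and a different amount of RNA per cell cannot be told apart.

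**Figure D1:**
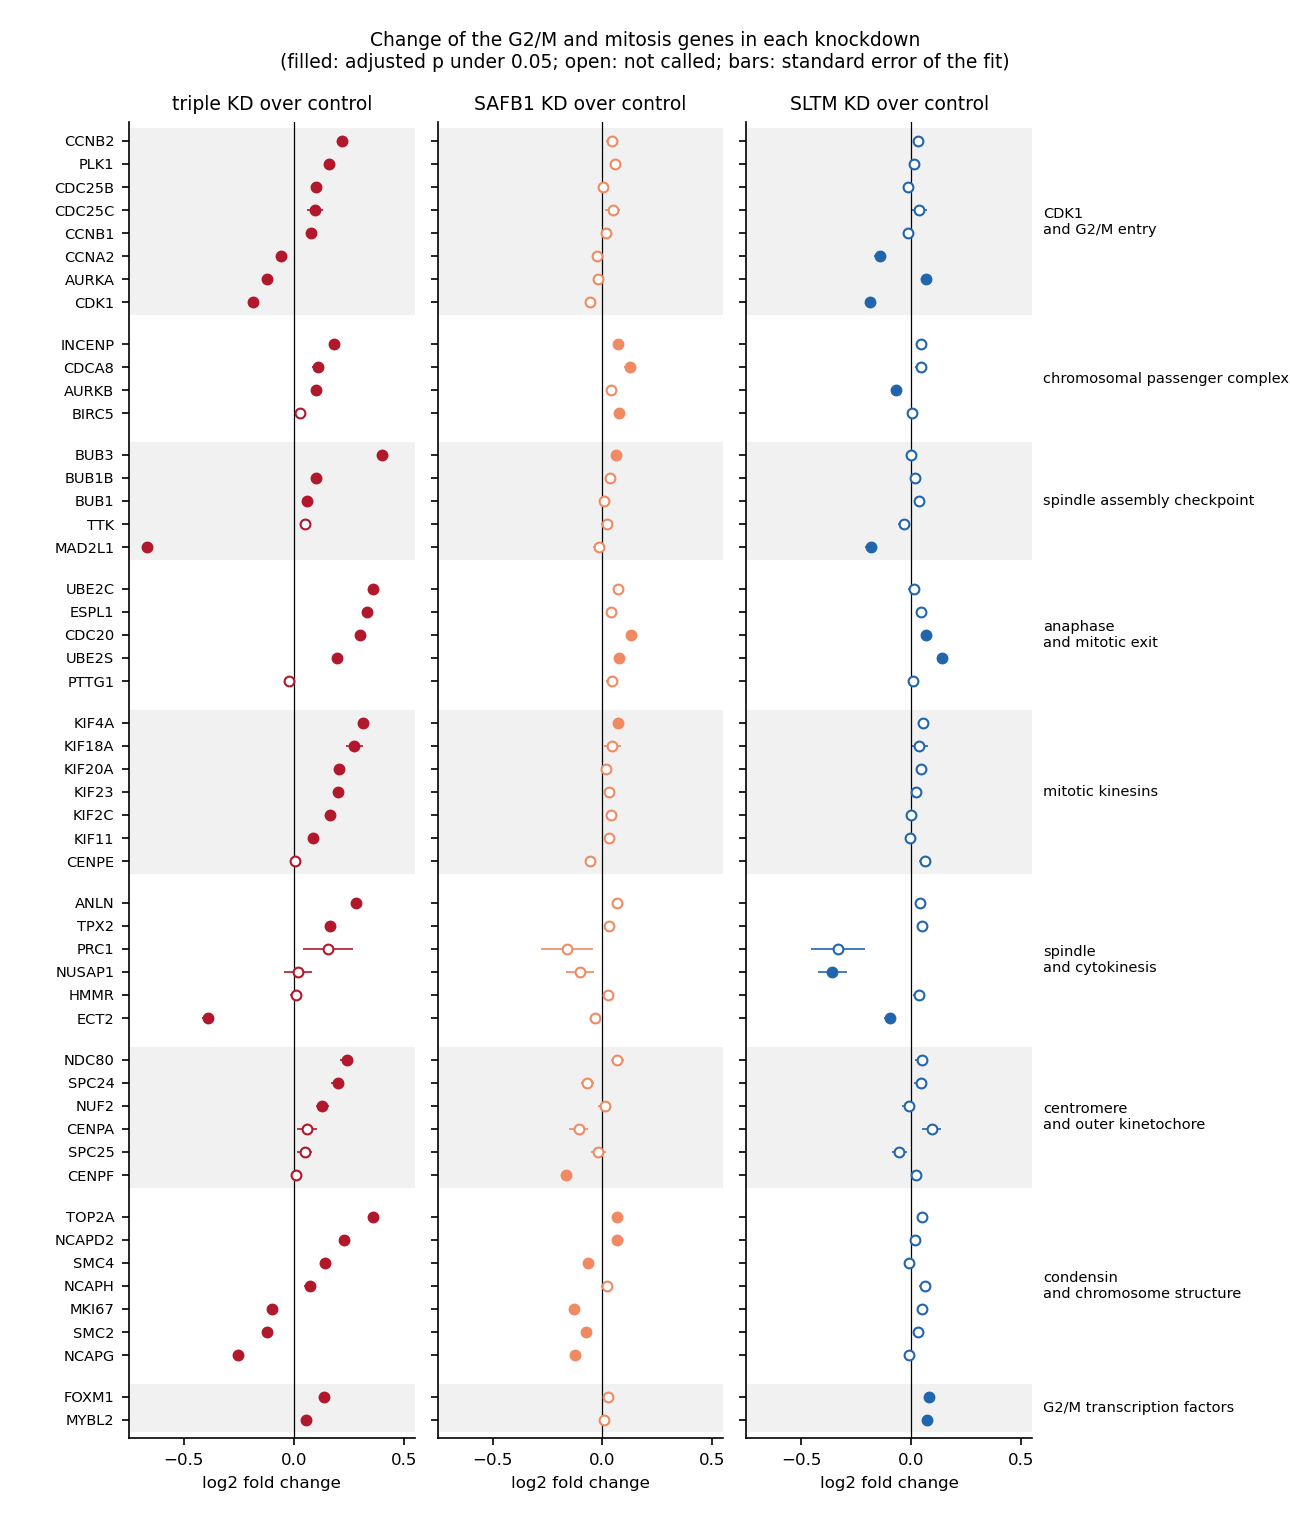
The log2 fold change of each member in triple KD, SAFB1 KD and SLTM KD over control, ordered by role, with the standard error of the fit (filled, adjusted p under 0.05; open, not called). In triple KD 32 members stand to the right and 8 to the left of 0 as filled points, with MAD2L1 and ECT2 farthest to the left, and most points in the single knockdowns are open and close to 0.

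The spindle assembly checkpoint held the members at both ends of that range. BUB3 binds phosphorylated KNL1 at unattached kinetochores and brings BUB1 and BUB1B (BubR1) there, and its gene lies at chr10:123154402-123170467 on the plus strand of GRCh38. BUB3 had 276, 281 and 281 CPM in triple KD, 219, 221 and 221 in SAFB1 KD and 214, 211 and 209 in SLTM KD, against 211, 212 and 211 CPM in control. Every triple KD library lay above every other library, and the log2 fold change over control was 0.40 ± 0.020 (SE; adjusted p = 4.22e-26). MAD2L1 encodes MAD2, which changes shape at unattached kinetochores and there captures CDC20 into the checkpoint complex, and its gene lies at chr4:120055623-120066858 on the minus strand. MAD2L1 had 72.6, 68.9 and 69.2 CPM in triple KD, 109, 111 and 110.4 in SAFB1 KD and 100.4, 97.98 and 95.7 in SLTM KD, against 108, 111 and 115 CPM in control. The triple KD libraries lay far below all others (-0.67 ± 0.027, adjusted p = 7.37e-31), and SLTM KD libraries lay below control as well (-0.18 ± 0.026, adjusted p = 2.94e-07). In SAFB1 KD the 95% interval of its log2 fold change was -0.08 to 0.04. Of the other checkpoint genes, the pseudokinase BUB1B and the kinase BUB1 were higher in triple KD by 0.10 and 0.06 on the log2 scale, and the kinase TTK (MPS1) had a value of 0.05 that did not pass (adjusted p = 0.102). With the replicate number as a block TTK was called (adjusted p = 0.0469).

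Genes of anaphase and mitotic exit had the highest median of the role groups, 0.30, with 4 of 5 higher in triple KD and none lower. CDC20 activates the anaphase-promoting complex, a ubiquitin ligase, and is itself held back by MAD2. CDC20 had 304, 299.9 and 299.5 CPM in triple KD, 267, 268 and 267 in SAFB1 KD and 252, 253 and 262 in SLTM KD, against 242, 246 and 245 CPM in control (0.30 ± 0.020 in triple KD, adjusted p = 3.55e-20). No knockdown library overlapped with control, and CDC20 and UBE2S were the only members called higher in all 3 knockdowns. The calls of CDC20 in SLTM KD and of UBE2S in SAFB1 KD were lost in 8 and 11 of 20 alternatives. UBE2C and UBE2S are the E2 enzymes of the complex, UBE2C to start ubiquitin chains and UBE2S to lengthen them. UBE2C had 124, 121 and 123 CPM in triple KD, 99.4, 102 and 100.2 in SAFB1 KD and 98.6, 94.5 and 96.1 in SLTM KD, against 93.3, 96.9 and 96.6 CPM in control (0.36 ± 0.025 in triple KD, adjusted p = 1.03e-19). UBE2S had 362, 338 and 355 CPM in triple KD against 323, 290.3 and 309 CPM in control (0.20 ± 0.024, adjusted p = 2.57e-10), with no overlap. Both have processed pseudogenes whose reads can be shared with them: UBE2CP5 held 3.952% as many counts as UBE2C and UBE2SP1 1.283% as many as UBE2S, summed over the libraries. ESPL1, which encodes separase, the protease that opens cohesin rings, had 216, 223 and 221 CPM in triple KD, 179.7, 182 and 177 in SAFB1 KD and 179, 182 and 181 in SLTM KD, against 173, 177 and 175 CPM in control (0.33 ± 0.021 in triple KD, adjusted p = 5.96e-21). Its inhibitor securin, encoded by PTTG1, had 100.4, 103 and 107 CPM in triple KD against 101, 107 and 107 CPM in control, and these libraries overlapped (-0.02 ± 0.026, adjusted p = 0.589).

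Of the 7 mitotic kinesins, motors that move chromosomes and slide or shorten microtubules, 6 were higher in triple KD and none was lower, with a median of 0.20. The chromokinesin KIF4A, which also limits the length of the central spindle, had 159, 159 and 157 CPM in triple KD, 132, 137 and 134 in SAFB1 KD and 132, 133 and 133 in SLTM KD, against 128, 127 and 128 CPM in control (0.31 ± 0.022 in triple KD, adjusted p = 8.65e-19). KIF18A, which damps chromosome movements at the metaphase plate, had 32.99, 33.1 and 32.1 CPM in triple KD, 27.7, 27.6 and 28.5 in SAFB1 KD and 28.1, 27.8 and 27.5 in SLTM KD, against 25.4, 26.9 and 28.7 CPM in control (0.27 ± 0.038 in triple KD, adjusted p = 8.24e-09). The triple KD libraries of both lay above those of every other group. KIF20A (MKLP2) and KIF23 (MKLP1), which work at the midzone in cytokinesis, were each higher by 0.20, the depolymerase KIF2C (MCAK) by 0.17 and the bipolar motor KIF11 (Eg5) by 0.09. CENPE, the kinetochore motor that brings chromosomes to the plate, had a value of 0.01 (adjusted p = 0.865).

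The spindle and cytokinesis genes were split. ANLN encodes anillin, a scaffold of the contractile ring, and had 219, 219 and 218 CPM in triple KD, 185, 189 and 189 in SAFB1 KD and 183, 192 and 180.1 in SLTM KD, against 176, 184 and 178 CPM in control (0.28 ± 0.022 in triple KD, adjusted p = 4.63e-17). ECT2 encodes the exchange factor that activates RhoA to place that ring, and lies at chr3:172750682-172821474 on the plus strand. ECT2 had 93.7, 92.2 and 93.6 CPM in triple KD, 120.5, 120.2 and 118 in SAFB1 KD and 117, 119 and 106 in SLTM KD, against 123, 121 and 122 CPM in control (-0.39 ± 0.027 in triple KD, adjusted p = 1.42e-19). Anillin RNA was thus above and ECT2 RNA below every other library in triple KD. TPX2, which activates Aurora A on the spindle, was higher by 0.17, while the microtubule-binding HMMR had a value of 0.01 (adjusted p = 0.849). NUSAP1 and PRC1, which bundle spindle microtubules, were counted at low levels: PRC1 had 2.36, 2.19 and 2.27 CPM in triple KD, 1.89, 1.90 and 1.67 in SAFB1 KD and 1.49, 1.68 and 1.70 in SLTM KD, against 2.01, 2.11 and 1.999 CPM in control. Of the exonic bases of PRC1, 57.6% lie also in exons of a read-through gene on the same strand, ENSG00000284946, and 81.4% of those of NUSAP1 lie in ENSG00000285920, by GENCODE release 44. Reads over such shared exons are not assigned to either gene by this kind of counting, so the levels of PRC1 and NUSAP1 are uncertain. ENSG00000284946 itself held 5393 counts over the libraries (log2 fold change 0.71 in triple KD over control, adjusted p = 8.75e-14) and ENSG00000285920 held 0.

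Condensin, the ring complex that compacts mitotic chromosomes, had subunits on both sides. NCAPD2, a HEAT-repeat subunit of condensin I, had 529, 536 and 522 CPM in triple KD, 470.1, 478 and 469 in SAFB1 KD and 461, 455 and 455 in SLTM KD, against 454, 450.4 and 449 CPM in control (0.23 ± 0.018 in triple KD, adjusted p = 5.53e-17). NCAPG, the other HEAT-repeat subunit of the same complex, had 120.4, 120.5 and 125 CPM in triple KD, 130.1, 134 and 136 in SAFB1 KD and 143, 148 and 143 in SLTM KD, against 141, 148 and 146 CPM in control (-0.25 ± 0.024 in triple KD, adjusted p = 5.18e-14). SMC2, of the ATPase pair of condensin, had 137, 141 and 136 CPM in triple KD against 149, 149 and 152 CPM in control (-0.12 ± 0.023), and its partner SMC4 was higher by 0.14. The kleisin NCAPH was higher by 0.07, so 3 of these 5 subunits were called higher and 2 lower. TOP2A, the topoisomerase that untangles sister chromatids, had 931, 946 and 917 CPM in triple KD, 744, 766 and 773 in SAFB1 KD and 757, 767 and 728 in SLTM KD, against 706, 734 and 737 CPM in control (0.36 ± 0.019 in triple KD, adjusted p = 1.53e-24). MKI67, whose protein Ki-67 coats mitotic chromosomes and is the usual label of dividing cells, had 703, 733 and 704 CPM in triple KD, 676, 706 and 710.4 in SAFB1 KD and 789, 791 and 789 in SLTM KD, against 758, 775 and 759 CPM in control (-0.10 ± 0.019 in triple KD, adjusted p = 1.12e-05). MKI67 and TOP2A, both often read as marks of proliferation, lay on opposite sides of control in triple KD. LCORL and TRIM59 overlap 33.7% and 19.0% of the exonic bases of NCAPG and SMC4 on the other strand, and the counts were taken by strand.

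Among the regulators of mitotic entry, 5 of 8 were higher and 3 lower in triple KD. CDK1, the kinase that starts mitosis, had 225, 223 and 219.9 CPM in triple KD, 245, 240.2 and 246 in SAFB1 KD and 220.5, 224 and 224 in SLTM KD, against 247, 250.3 and 263 CPM in control. It was lower by nearly the same amount in triple KD (-0.19 ± 0.021, adjusted p = 3.96e-11) and in SLTM KD (-0.19 ± 0.021, adjusted p = 1.41e-09). In SAFB1 KD it was not called (adjusted p = 0.0953). Among other settings, it was called lower there with no filter on low counts and with the replicate number as a block (-0.06, adjusted p = 0.0237). AURKA, the centrosomal Aurora kinase, had 132, 133 and 133 CPM in triple KD, 139, 143 and 145 in SAFB1 KD and 152, 152 and 150.4 in SLTM KD, against 140.4, 147 and 146 CPM in control (-0.12 ± 0.023 in triple KD, adjusted p = 9.29e-06). CCNA2, cyclin A2 of S phase and G2, had 151, 148 and 145 CPM in triple KD, 153, 153 and 148 in SAFB1 KD and 140.3, 144 and 135 in SLTM KD, against 155, 154 and 153 CPM in control. Its call in triple KD was marginal (-0.06 ± 0.024, adjusted p = 0.0482) and was lost under upper-quartile scaling and in 7 of the 12 fits that left out 1 library, among other settings, and the adjusted p for CCNA2 in triple KD against control ran between 0.0131 and 0.466 over all alternatives. Of the cyclin B genes, whose products pair with CDK1, CCNB2 was higher by 0.22 and CCNB1 by 0.08. PLK1, the Polo kinase, was higher by 0.16, and the phosphatases that activate CDK1, CDC25B and CDC25C, by 0.10 and 0.10.

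Of the chromosomal passenger complex, which corrects faulty attachments, the scaffold INCENP was higher in triple KD by 0.18, borealin (CDCA8) by 0.11 and the kinase AURKB by 0.10, while survivin (BIRC5) had a value of 0.03 (adjusted p = 0.311). The outer kinetochore complex that grips microtubules showed 3 of its 4 subunits higher: NDC80 had 70.7, 73.9 and 71.6 CPM in triple KD, 62.2, 63.6 and 66.3 in SAFB1 KD and 63.9, 63.8 and 61.5 in SLTM KD, against 59.2, 61.4 and 62.4 CPM in control (0.24 ± 0.029 in triple KD, adjusted p = 1.96e-10). SPC24 was higher by 0.20 and NUF2 by 0.13, and SPC25 had a value of 0.05 (adjusted p = 0.261). CENPF, a large kinetochore and nuclear matrix protein, had a value of 0.01 and the centromeric histone CENPA of 0.06, and neither passed. Both transcription factors of the program were higher, FOXM1 by 0.14 and MYBL2 by 0.06. The calls of CDC25C, BUB1, NCAPH and MYBL2, all small changes, were lost with no filter on low counts, and leaving out 1 library also ended some of them: BUB1 without control replicate 1 or 3 or triple KD replicate 2 or 3, CDC25C without control replicate 2 or 3 or triple KD replicate 2 or 3, NCAPH without control replicate 3 or triple KD replicate 2, and MYBL2 without triple KD replicate 1.

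**Figure D2:**
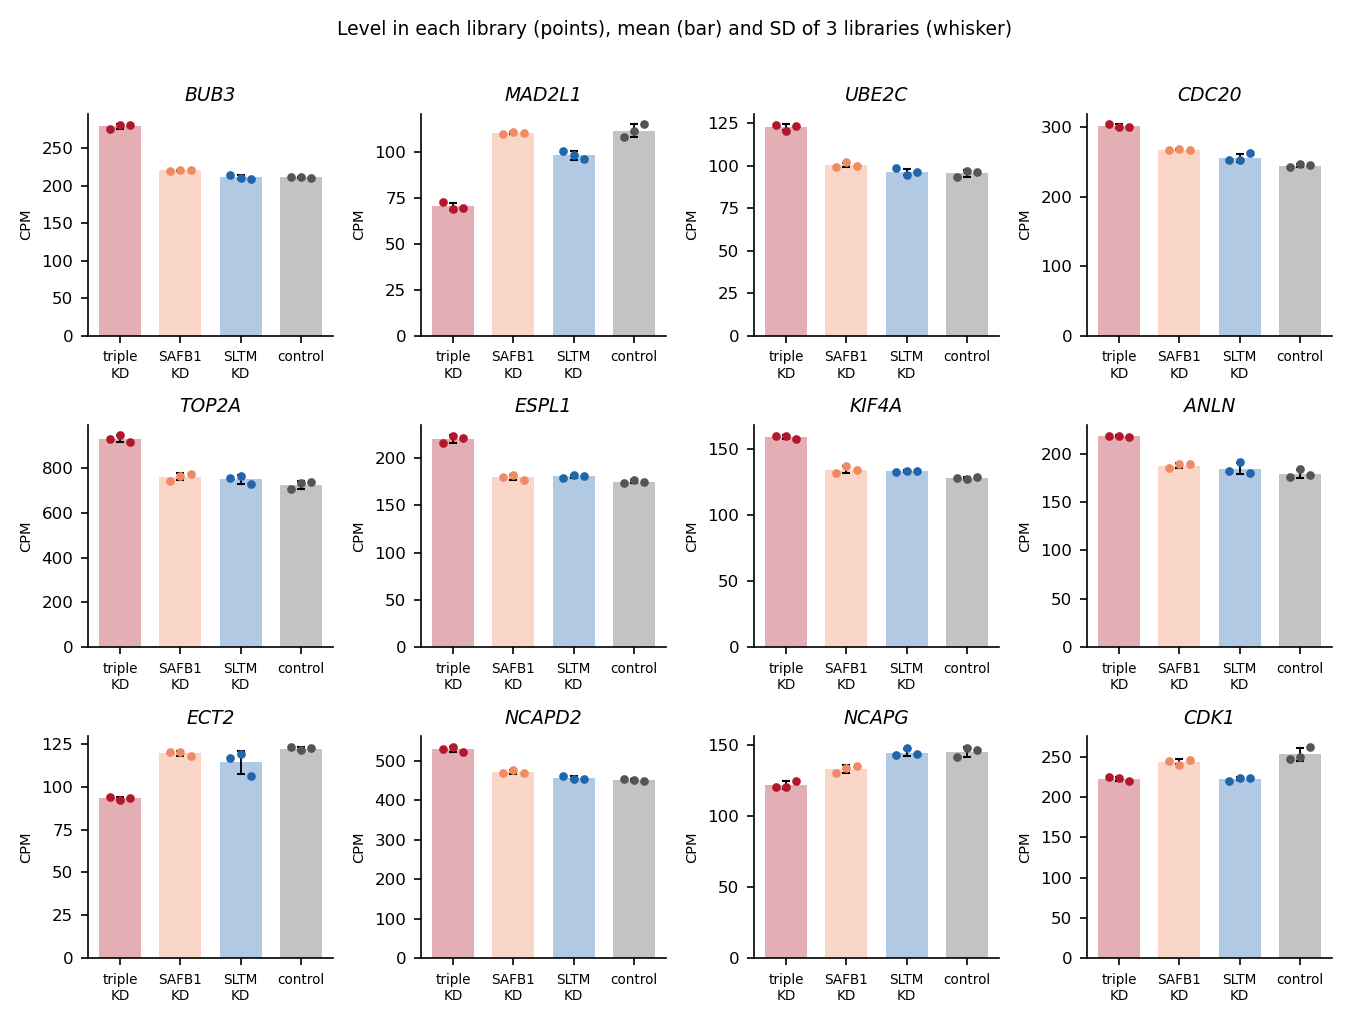
CPM of 12 members in each library (points), with the mean (bar) and the SD of 3 libraries (whisker), in triple KD, SAFB1 KD, SLTM KD and control. The triple KD bars of BUB3, UBE2C, CDC20, TOP2A, ESPL1, KIF4A, ANLN and NCAPD2 are the highest of the 4 groups, those of MAD2L1, ECT2 and NCAPG are the lowest, and CDK1 is as low in SLTM KD as in triple KD.

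In SAFB1 KD 9 members were higher and 5 lower than in control, with a median of 0.02. Over all genes tested the shares were 5.04% higher and 4.62% lower, and among genes with at least 10 CPM 11.9% and 8.64%. CDC20 (0.13 ± 0.020, adjusted p = 2.28e-06) and the passenger protein CDCA8 (0.12 ± 0.025, adjusted p = 0.000385) had the highest values. CDCA8 had 92, 90.9 and 93.9 CPM in SAFB1 KD against 84.4, 85.5 and 84.2 CPM in control, with no overlap. A further pair of passenger genes was called, BIRC5 with 235, 238 and 242 CPM in SAFB1 KD against 224, 226 and 228 CPM in control, and INCENP with 123, 127 and 125 CPM in SAFB1 KD against 120.2, 121 and 116 CPM in control. UBE2S had 320.5, 325 and 327 CPM in SAFB1 KD against 323, 290.3 and 309 CPM in control, which overlapped (0.08 ± 0.024, adjusted p = 0.0264). CENPF was the lowest, with 429.7, 443 and 444 CPM in SAFB1 KD against 492, 495 and 490.4 CPM in control (-0.17 ± 0.020, adjusted p = 2.01e-09), and MKI67 (-0.13 ± 0.019, adjusted p = 3.93e-07) and NCAPG (-0.13 ± 0.024, adjusted p = 0.000101) followed. Of the condensin ATPases, SMC2 had 140.3, 144 and 143 CPM in SAFB1 KD against 149, 149 and 152 CPM in control (-0.08 ± 0.023), and SMC4 had 402, 401 and 406 CPM in SAFB1 KD against 415, 418 and 431 CPM in control (-0.06 ± 0.020). Of the condensin and chromosome structure genes 4 of 7 were thus lower and 2 higher, NCAPD2 (0.07) and TOP2A (0.07), and of the centromere and outer kinetochore genes 1 of 6 was lower. The call of NCAPD2 was lost with no filter and without control replicate 2 or 3 or SAFB1 KD replicate 1 or 2. That of TOP2A was lost without control replicate 1 or SAFB1 KD replicate 2 or 3. The count of members higher was 9 without SLTM KD replicate 1 or triple KD replicate 3 and between 3 and 5 without any other single library. The call of BIRC5 was lost without control replicate 1 or 2 or SAFB1 KD replicate 3 (highest adjusted p = 0.0779), that of SMC4 without control replicate 3 or SAFB1 KD replicate 2 (0.111), and those of INCENP and UBE2S in 10 and 9 of the 12 fits that left out 1 library (0.437 and 0.633). With no filter on low counts the calls over all genes were 953 higher and 1411 lower in SAFB1 KD, in place of 1345 and 1232.

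In SLTM KD 5 members were higher and 6 lower than in control, with a median of 0.03. Over all genes tested 3.60% were higher and 5.65% lower, and among genes with at least 10 CPM 6.85% and 13.4%. UBE2S was the highest, with 337, 333 and 347 CPM in SLTM KD against 323, 290.3 and 309 CPM in control (0.14 ± 0.024, adjusted p = 1.32e-05). Both transcription factors were called: FOXM1 had 211, 208 and 207 CPM in SLTM KD against 197, 196 and 199 CPM in control (0.08 ± 0.021), and MYBL2 had 547, 536 and 556 CPM in SLTM KD against 519.6, 523 and 516 CPM in control (0.07 ± 0.018). AURKA and CDC20 were higher by 0.07 and 0.07, calls lost in 10 and 7 of the 12 fits that left out 1 library. The lower members were led by NUSAP1, with 9.37, 10.6 and 7.84 CPM in SLTM KD against 12.02, 11.6 and 12 CPM in control (-0.36 ± 0.066, adjusted p = 5.55e-05), a gene whose counts are uncertain as described above. CDK1 (-0.19), MAD2L1 (-0.18) and CCNA2 (-0.14, adjusted p = 1.00e-05) were lower, and so was ECT2 (-0.10, adjusted p = 0.00934), with SLTM KD replicate 3 at 106 CPM below its group. AURKB was lower (-0.07, adjusted p = 0.0458), a call lost under upper-quartile scaling and under DESeq2-style size factors. It was also lost when only the libraries compared were fitted, and without control replicate 1 or SLTM KD replicate 1 or 2. The call of ECT2 was lost without control replicate 1 or SLTM KD replicate 3, that of FOXM1 without control replicate 2 or SLTM KD replicate 1, and that of MYBL2 without control replicate 3 or SLTM KD replicate 3 (highest adjusted p = 0.201, 0.0842 and 0.0642). The count of members higher was 3 without control replicate 1 or 3, SAFB1 KD replicate 1, SLTM KD replicate 1 or 3, or triple KD replicate 1 or 2, and 2 without control replicate 2. Under upper-quartile scaling it was 12, and the calls over all genes were 1552 higher and 1146 lower in place of 962 and 1509.

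The comparisons with control share the control libraries, so the knockdowns were also set against each other. Against SAFB1 KD, triple KD had 32 members higher and 5 lower (16.2% and 18.6% of all genes tested, 27.6% and 37.5% of those with at least 10 CPM). Against SLTM KD it had 32 higher and 6 lower (17.5% and 18.8% of all genes tested, 33.5% and 32.7% of those with at least 10 CPM). BUB3 differed by 0.34 ± 0.020 from SAFB1 KD and by 0.40 ± 0.020 from SLTM KD, and MAD2L1 by -0.65 ± 0.027 and -0.48 ± 0.027. Against SAFB1 KD, PRC1 (0.32 ± 0.12) and ESPL1 (0.29 ± 0.021) were higher and ECT2 (-0.36 ± 0.027) and CDK1 (-0.13 ± 0.022) lower. The call of PRC1 was lost under DESeq2, with no filter on low counts, and without SAFB1 KD replicate 3 or triple KD replicate 1 or 3. Between triple KD and SLTM KD the log2 fold change of CDK1 had a 95% interval of -0.05 to 0.05. Against SLTM KD, NCAPG (-0.25 ± 0.024) and ECT2 (-0.29 ± 0.027) were lower and PRC1 (0.49 ± 0.12) higher. NUSAP1 had 12.3, 11.8 and 12.01 CPM in triple KD against 9.37, 10.6 and 7.84 CPM in SLTM KD (0.38 ± 0.067), with no overlap. With the replicate number as a block UBE2S (0.05, adjusted p = 0.00599) and CENPE (-0.05, adjusted p = 0.0235) were also called against SLTM KD.

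SAFB1 KD set against SLTM KD had 9 members higher and 9 lower (9.27% and 6.78% of all genes tested, 22.2% and 11.2% of those with at least 10 CPM). NUSAP1, MAD2L1 and CDK1 had the highest differences (0.26, 0.17 and 0.13), all genes that were lower in SLTM KD than in control. NUSAP1 had 11.2, 12.01 and 9.79 CPM in SAFB1 KD, which overlapped with SLTM KD, and its call was lost without SAFB1 KD replicate 2 or SLTM KD replicate 3. CENPA, CENPF and MKI67 had the lowest (-0.20, -0.19 and -0.18). CENPA had 17.6, 18.2 and 17.6 CPM in SAFB1 KD against 20.3, 19.9 and 21.4 CPM in SLTM KD, with no overlap (adjusted p = 0.000564), though neither knockdown differed from control by the test (adjusted p = 0.12 and 0.207). Under upper-quartile scaling 5 members were higher and 12 lower, and the calls over all genes were 1780 higher and 2340 lower in place of 2473 and 1809.

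The triple KD differed from the sum of both single knockdowns on the log2 scale in 29 members, 25 higher and 4 lower (9.48% and 11.9% of all genes tested, 19.6% and 25.0% of those with at least 10 CPM). SAFB2 was targeted only in the triple KD, so this difference holds its loss as well as any interplay. BUB3 exceeded the sum by 0.34 ± 0.029 (adjusted p = 2.60e-15) and UBE2C by 0.28. MAD2L1 fell below it by 0.46 (adjusted p = 5.24e-16), ECT2 had a difference of -0.26 ± 0.038 and AURKA of -0.17 ± 0.033. AURKA was called lower in triple KD and higher in SLTM KD, but its SLTM KD call was lost in 12 of 20 alternatives. PRC1 and NUSAP1 had the highest values (0.65 ± 0.17 and 0.48 ± 0.092) but are the 2 members with most of their exonic bases in another gene. CENPF was called lower in SAFB1 KD and not in triple KD, differed between them by 0.18 ± 0.020, and exceeded the sum by 0.16 ± 0.028 (adjusted p = 8.37e-06).

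Other genes of mitosis, taken from lists of related complexes, went both ways in nearly equal number. Of 92 such genes in triple KD, 32 passed upward and 38 downward, with a median of -0.02. The kinesins outside the 50 held both: KIF20B had 69.6, 74.1 and 69.7 CPM in triple KD against 146, 145 and 147 CPM in control (-1.04 ± 0.026, adjusted p = 3.46e-41), KIF15 (-0.75) and KIF3B (-0.49) were lower, and 5 of the 8 were higher. Of the other spindle and cytokinesis genes 9 of 17 were higher and 5 lower, with citron kinase (CIT) at 91.4, 93.3 and 92.4 CPM in triple KD against 46.7, 47.1 and 44.9 CPM in control (log2 fold change 0.999, adjusted p = 1.34e-38), and DEPDC1 (-0.42) and FAM83D (-0.34) lower. Among the KNL1, MIS12, SKA and RZZ kinetochore genes, listed with SPDL1, MAD1L1, MAD2L1BP and TRIP13, 1 of 16 was higher (KNL1, 0.31). Of this list 10 were lower, with ZWILCH at -0.34 and KNTC1 at -0.23. The subunits of the anaphase-promoting complex, listed with its coactivator FZR1 and its inhibitor FBXO5, were 6 higher and 7 lower of 16 (ANAPC2 0.31, ANAPC16 -0.37, ANAPC13 -0.37). Cohesin genes were 6 higher and 6 lower of 15, led by STAG2 (0.55), SGO2 (-0.48) and ESCO2 (-0.28). Of the remaining condensin subunits NCAPD3 of condensin II was called, higher by 0.20. Of the other entry regulators 4 of 17 were higher and 7 lower. The phosphatase CDC25A had 95.6, 93.8 and 89.4 CPM in triple KD against 152, 151 and 154 CPM in control (-0.71 ± 0.024), while its relatives CDC25B and CDC25C were higher. The CDK inhibitor CDKN1A (p21) was higher by 0.46 and the CDK1 partner CKS2 lower (-0.27).

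The regulators upstream of these genes were looked up too. Of 10 MuvB and DREAM components 4 were higher and 2 lower in triple KD: E2F5 had 8.27, 7.61 and 7.39 CPM in triple KD against 20.0, 19.2 and 18.1 CPM in control (-1.30 ± 0.053, adjusted p = 1.91e-30), LIN9 of the MuvB core was lower (-0.18), and the pocket protein RBL2 (p130) was higher by 0.11. RB1, which restrains E2F factors, had 55.2, 54.1 and 53.96 CPM in triple KD against 146, 147 and 144 CPM in control (-1.42 ± 0.028), and E2F2, an activating E2F, 55.4, 57.1 and 51.02 CPM in triple KD against 31.5, 31.3 and 31.3 CPM in control (0.80 ± 0.035). Of 34 genes of G1/S and replication, 14 were higher and 11 lower, with a median of 0.03. CCND3, cyclin D3, was higher by 1.30, GINS3 of the replicative helicase higher by 0.58 and RRM2, a ribonucleotide reductase subunit, lower (-0.54). The part of these regulators in the members' values was not tested.

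**Figure D3:**
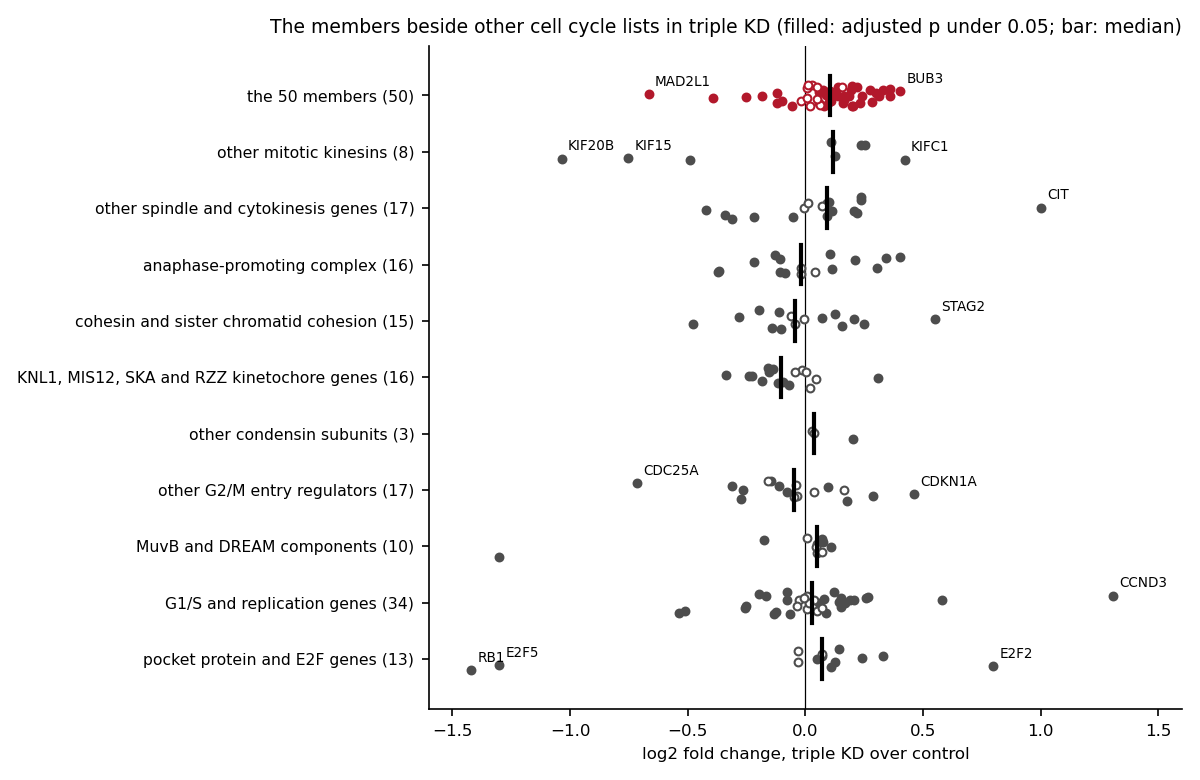
The log2 fold change in triple KD over control of the 50 members (top) and of genes in 10 other cell cycle lists, each point a gene (filled, adjusted p under 0.05) and each bar the list's median. The members lie between -0.67 and 0.40 with a median of 0.10, and several genes of the other lists, among them KIF20B, CDC25A, RB1, CIT and CCND3, lie outside that range.

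Levels can be compared between members only per length of transcript. Per kilobase, MYBL2 (203 CPM per kb in triple KD and 195 in control) and CDC20 (183 in triple KD and 148 in control) ranked at the top, and PRC1 (0.741 in triple KD and 0.664 in control) and NUSAP1 (5.32 in triple KD and 5.25 in control) at the bottom. MAD2L1 lay at 13.4 CPM per kb in triple KD and 21.3 in control, on a transcript model of 5227 bases with a longest exon of 4668, so its place in this order depends on that model.

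The promoters were searched for words named after the factors of the program described above. RefSeq windows of 300 bases (250 before and 50 after the start site, GRCh38.p14) were matched for 43 of the 50 members, all but BUB3, TTK, AURKA, FOXM1, BIRC5, UBE2C and TPX2. A CHR word, meaning TTTGAA and also its variant TTCGAA on either strand, was present in the window of 74.4% of these genes, against 19.5% of all 27305 genes with a window. Within 80 bases before to 29 after the start site the shares were 65.1% and 7.0%. The NF-Y box CCAAT on either strand was found for 76.7% of the members and 39.7% of all genes, at least 2 of them for 46.5% and 12.9%, and both CHR word and box for 58.1% and 7.8%. E2F words, meaning TTGGCG on either strand and likewise the variants TTCGCG on either strand and also TTCCCG, were found for 60.5% and 30.7%. By direction, a CHR word was in 71.4% of the 28 members with a window that were higher in triple KD, in 85.7% of the 7 that were lower and in 75.0% of the 8 not called. In the other mitosis lists the CHR word was found for 51.2% of 80 genes. A match is a description of letters and not a measured binding site. The 130 bases before the RefSeq start site are given for 4 members higher in triple KD and then for 3 lower. They were picked because these bases hold both a CHR word and an NF-Y box in full, so they do not show how often both occur. The choice was made among the called members given library by library for triple KD against control. CHR words and NF-Y boxes are in capitals:
ESPL1 (chr12:53268169-53268298, plus strand): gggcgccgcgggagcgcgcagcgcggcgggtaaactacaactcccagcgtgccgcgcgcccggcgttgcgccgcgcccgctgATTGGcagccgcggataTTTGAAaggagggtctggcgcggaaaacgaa
KIF4A (chrX:70289974-70290103, plus strand): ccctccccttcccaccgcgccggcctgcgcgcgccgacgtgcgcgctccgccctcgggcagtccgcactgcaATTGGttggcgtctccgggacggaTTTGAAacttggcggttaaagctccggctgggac
CDC20 (chr1:43358851-43358980, plus strand): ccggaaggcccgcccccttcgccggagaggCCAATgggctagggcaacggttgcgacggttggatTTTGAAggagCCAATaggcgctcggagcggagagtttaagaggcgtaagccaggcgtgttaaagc
KIF18A (chr11:28108157-28108286, minus strand): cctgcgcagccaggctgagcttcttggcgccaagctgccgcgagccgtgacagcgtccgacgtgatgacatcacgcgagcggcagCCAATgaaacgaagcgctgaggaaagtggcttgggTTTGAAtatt
MKI67 (chr10:128126424-128126553, minus strand): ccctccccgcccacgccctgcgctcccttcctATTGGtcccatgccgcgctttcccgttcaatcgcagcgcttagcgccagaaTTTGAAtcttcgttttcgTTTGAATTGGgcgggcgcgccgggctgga
CDK1 (chr10:60778348-60778477, plus strand): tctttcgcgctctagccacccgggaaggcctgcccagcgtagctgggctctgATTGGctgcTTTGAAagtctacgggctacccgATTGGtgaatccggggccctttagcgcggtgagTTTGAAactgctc
ECT2 (chr3:172750596-172750725, plus strand): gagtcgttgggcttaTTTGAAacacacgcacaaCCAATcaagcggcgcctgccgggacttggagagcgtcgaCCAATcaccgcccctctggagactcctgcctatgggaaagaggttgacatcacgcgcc

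**Figure D4:**
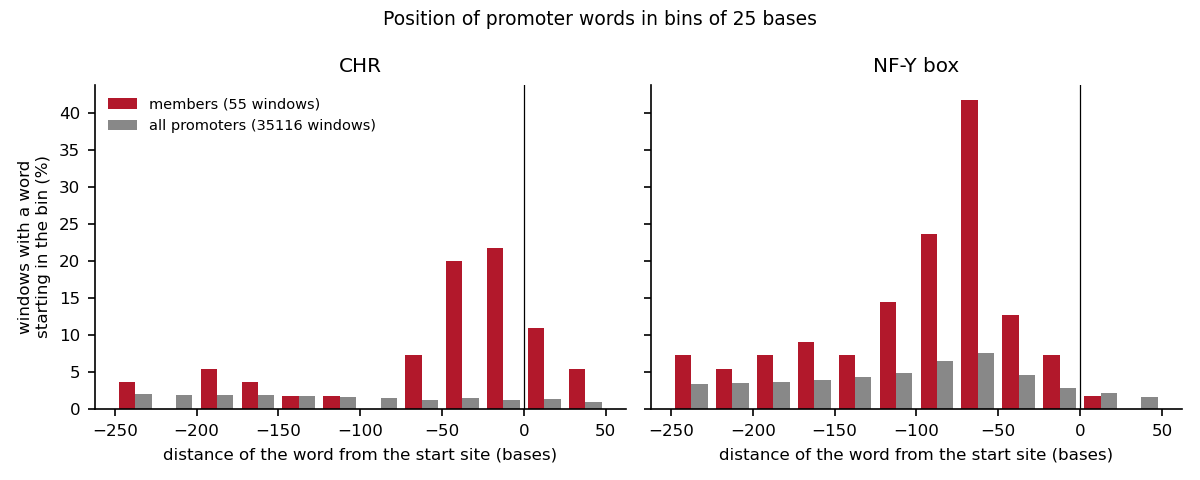
Share of RefSeq promoter windows in which a CHR word (left) or an NF-Y box (right) starts in each bin of 25 bases, by distance from the start site, for 55 windows of the members and for all 35116 windows. The members' CHR words gather in the last bases before the start site and their NF-Y boxes farther upstream, while all promoters are low and flat for the CHR word.

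The seeds of the 3 siRNAs were looked up in the members' transcripts, since an siRNA can also lower RNAs that pair with bases 2 to 8 of its guide strand. The sense strands, from the study's list of oligos, are shown with the stretch that a target must hold to pair with the seed in capitals and the overhang at the end:
SAFB1 siRNA: ggaccaagaugAUCAGAAatt
SAFB2 siRNA: ggacggucgugAUGGAUAatt
SLTM siRNA: gcauuagaauaAUUCGUGatt
They match SAFB (chromosome 19), SAFB2 (chromosome 19) and SLTM (chromosome 15), and no member held a whole match. The SAFB1 seed word was in 17 members (34.0%, against 34.9% of 9735 coding genes with at least 10 CPM), the SAFB2 word in 14 (28.0%, against 20.2%) and the SLTM word in 3 (6.0%, against 6.0%). MAD2L1 held 2 SAFB1 words and 2 SAFB2 words, and ECT2 held 1 SAFB2 word. Of the members lower in SAFB1 KD, CENPF held 6 SAFB1 words, NCAPG 3, MKI67 2, and SMC2 and SMC4 0. Of the members lower in triple KD beside MAD2L1 and ECT2, NCAPG held 3 SAFB1 words, MKI67 2 and AURKA 1, and SMC2 held 2 SAFB2 words. CDK1 and CCNA2, also lower there, held 0 words of any of the siRNAs. Over members with the SAFB1 word the median log2 fold change in SAFB1 KD was 0.01, against 0.04 for the 33 without, and CDC20, the highest there, held 2. In triple KD the medians were 0.06 with the SAFB1 word and 0.14 without, and 0.08 with the SAFB2 word and 0.12 without. The part of seed pairing in these values was not tested.

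Across the 50 members the log2 fold change in triple KD had a Spearman correlation of 0.365 with the GC percentage of the transcript and of -0.293 with its share of A. Across 9735 coding genes with at least 10 CPM the same correlations were 0.19 and -0.142. With transcript length it was -0.012 over the members and with the mean level 0.10. These are descriptions over genes measured in the same libraries, and genes are not independent replicates.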

How the data were processed

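Poly(A) RNA was sequenced in 12 libraries (triple KD, SAFB1 KD, SLTM KD and control, 3 each). The authors aligned the reads to GRCh38 with GENCODE release 29 gene models (STAR 2.7.9a is named in the submitters' processing notes) and deposited reverse-stranded gene counts, 1 table per library. Gene symbols were matched for 99.03% of IDs. Counts were filtered (at least 10 summed over the libraries), scaled by TMM and fitted in edgeR 4.0.16 with 1 term per group over all 12 libraries. The quasi-likelihood test with Benjamini-Hochberg adjustment over 26688 genes gave calls at 0.05, and the common biological variation was 2.14%. Standard errors were derived from the fold change and its F value. Alternatives were other scalings and filters, DESeq2 1.42.0, limma 3.58.1 (voom), a replicate block, fitting only the libraries compared and leaving out each library. Same-numbered libraries deviated together (every correlation over 0.1) between triple KD and control (0.144 to 0.179) and between triple KD and SLTM KD (0.109 to 0.262). No label says what a number marks. The main fit did not use this pairing, and the replicate block was an alternative only. The main edgeR fit was tested on simulated counts with changes set in triple KD. The alternatives and the sequence searches were not tested in this way. Members and lists were chosen with earlier results of these data known. Members given with every library's value were the 10 highest and 10 lowest called in triple KD against control, 5 and 5 in each single knockdown against control and 3 and 3 in other comparisons, fewer where fewer were called, and of each other list the 3 called genes with the smallest adjusted p. PTTG1 was shown library by library after its values were seen.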

Additional observations from a re-analysis of the deposited data

How the results depend on the processing

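Of 1234 values of single named members under the alternatives, 1162 kept direction and side of the threshold, 72 kept direction and lost the call and 0 changed sign. In triple KD against control the counts stayed between 28 and 35 higher and between 7 and 8 lower over all alternatives, and leaving out 1 library gave 29 to 32 higher and 7 to 8 lower. Members higher in SLTM KD numbered 12 with upper-quartile factors, 3 with no filter and 9 with the replicate block, against 5, and 2 to 5 when 1 library was left out. Members higher in SAFB1 KD numbered 5 with no filter, 12 with edgeR's filterByExpr and 12 with the replicate block, against 9. Leaving out 1 library gave 3 to 9 there. Members higher in SAFB1 KD than in SLTM KD numbered 5 with upper-quartile factors, against 9. The cause of these shifts was not tested. Over all groups, same-numbered libraries correlated in their deviations between -0.0461 and 0.262 (median 0.152, 13 of 18 pairs over 0.1) and libraries of different number between -0.278 and 0.123 (median -0.0768, 1 of 36 over 0.1). In 4 of the 6 pairs of groups not every correlation was over 0.1. With the replicate block 33 members were higher and 8 lower in triple KD against control and 33 and 7 in triple KD against SLTM KD, and the block ended no call of a member in any comparison. Of named members, AURKA in SLTM KD, INCENP and UBE2S in SAFB1 KD and CCNA2 in triple KD lost their calls most often. BUB3 and KIF4A, outside the named members of SAFB1 KD, were called higher there against control. Both calls were lost with no filter and without any 1 control or SAFB1 KD library. They were also lost without SLTM KD replicate 2 or 3 or triple KD replicate 1 or 2. The smallest change called in triple KD against control at this depth was that of MYBL2 (0.06).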
